A study of Mus musculus with 4 samples.

Results

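The expression of 10 genes of homologous recombination, interstrand crosslink repair and end joining was followed in CT26 cells, a colon carcinoma line from BALB/c mice, after treatment with riluzole. The genes were Brca1, Bard1, Brca2, Rad51ap1, Exo1, Blm, Fancb, Fancm, Fancd2 and Xrcc6, chosen by name from the joined deposited tables, which hold all 10 among 4295 genes. The libraries fall into 2 groups: wild type CT26 cells given 25 µM riluzole for 24 h (2 libraries) and wild type CT26 cells given the solvent DMSO for 24 h (control, 2 libraries). Riluzole, given to patients with amyotrophic lateral sclerosis, dampens glutamate release. All cells were of 1 established line grown in culture, and the labels do not say whether the 2 replicates of a group came from separate cultures. The tests therefore see the spread between the samples at hand, which could be technical only. The study's title ties the drug to cGAS-STING signalling, which responds to cytosolic DNA.

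DNA breaks in dividing cells are mended by homologous recombination or by end joining. In recombination, the broken end is trimmed to single-stranded DNA, the BRCA1-BARD1 complex and BRCA2 help to build a protein filament on it, and the lost sequence is copied from the sister chromatid. Fanconi anaemia proteins unhook crosslinks between the DNA strands ahead of the replication fork and hand the resulting break to the same recombination machinery. Many of these genes are transcribed mainly in S and G2 phase, when a sister chromatid is present, and E2F factors and the CCAAT-binding factor NF-Y are known regulators of genes of this kind.

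The tables list only genes with a p-value under 0.05 in the authors' test, 1780 higher and 2515 lower with riluzole, so every one of the 10 genes had already passed that threshold, and a gene that is not listed was not shown to be unchanged. Library totals implied by the FPKM values (reads scaled by gene length and library total) were 18174251 and 15932205 counts for riluzole and 15803444 and 20562946 for control. Of 10 epithelial markers 3 were listed, the keratin genes Krt18 and Krt20 among them, and edgeR called all 3 higher with riluzole, by 0.51 to 2.08 on the log2 scale; Epcam and Cdh1 were among the 7 not listed. Their summed normalised counts were 1611 and 1557 with riluzole and 1041 and 978 in the controls. Of 12 leukocyte markers only Cd68 was listed, as higher by 0.70. Of 11 fibroblast and endothelial markers 4 were listed, 3 lower and 1 higher (by 0.69), with a median log2 fold change of -0.25. The summed normalised counts of these 4 were 75484 and 76049 with riluzole and 60880 and 56707 in the controls. The rise of that sum came from the 1 higher gene, against the direction of the other 3. The part of these markers in the results below was not tested, and the levels of unlisted markers were not analysed here.

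Upstream sequence was examined because the 10 genes moved in the same direction. That shared direction is not a finding, since the genes were chosen with earlier results of these data known. The motifs were chosen after the sequences were seen. The number of genes with a match can therefore not be read against the shares given below. RefSeq starts (GRCm38.p6) were at hand for 8 of the 10 genes. The 250 bases before each start were searched on both strands for 3 motifs. The E2F core was spelled TTCCCGC in its first form, with further accepted forms spelled TTCGCGC, then also spelled TTGGCGC, and lastly spelled TTGCCGC. The CCAAT box was searched by its name letters, and the cell cycle homology region, CHR, as TTTGAA. An E2F core was held by 6 genes. Their stretches are shown here 5′ to 3′ on the gene's strand, with E2F and CCAAT matches in capitals; capitals reading GCGGGAA or ATTGG are a match on the opposite strand.
Fancb, chrX:164980379-164980438, plus strand: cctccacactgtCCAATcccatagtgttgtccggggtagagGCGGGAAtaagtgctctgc
Blm, chr7:80535122-80535196, minus strand: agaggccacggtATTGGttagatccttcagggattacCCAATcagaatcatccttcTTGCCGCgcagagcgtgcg
Fancm, chr12:65075484-65075567, plus strand: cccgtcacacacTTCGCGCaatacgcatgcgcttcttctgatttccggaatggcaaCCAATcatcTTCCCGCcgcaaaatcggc
Bard1, chr1:71103162-71103192, minus strand: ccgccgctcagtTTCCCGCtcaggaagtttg
Xrcc6, chr15:82016311-82016341, plus strand: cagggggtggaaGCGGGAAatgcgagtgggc
Brca2, chr5:150522441-150522471, plus strand: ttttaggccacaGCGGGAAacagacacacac

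Fancb, Blm and Fancm carried both an E2F core and a CCAAT box. Brca1 and Rad51ap1 carried a CCAAT box without an E2F core in this window, and Bard1 alone had a CHR match. Over all 32851 mouse promoters of the same length, 7.89% held an E2F core, 33.8% a CCAAT box and 16% a CHR match. Among genes listed as lower, 345 of 1984 promoters held an E2F core (17.4%), against 189 of 1370 (13.8%) among those listed as higher. A CCAAT box was held by 38.1% of promoters listed as lower and 35.2% of those listed as higher, and a CHR match by 11% and 11.1%, both below the share over all promoters. The shares among listed genes count a single promoter per gene, whereas the share over all promoters counts every distinct promoter of a gene. Those shares are therefore not like for like, and the differences were not tested. These matches are descriptions of letters, and binding was not measured.

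**Figure D1:**
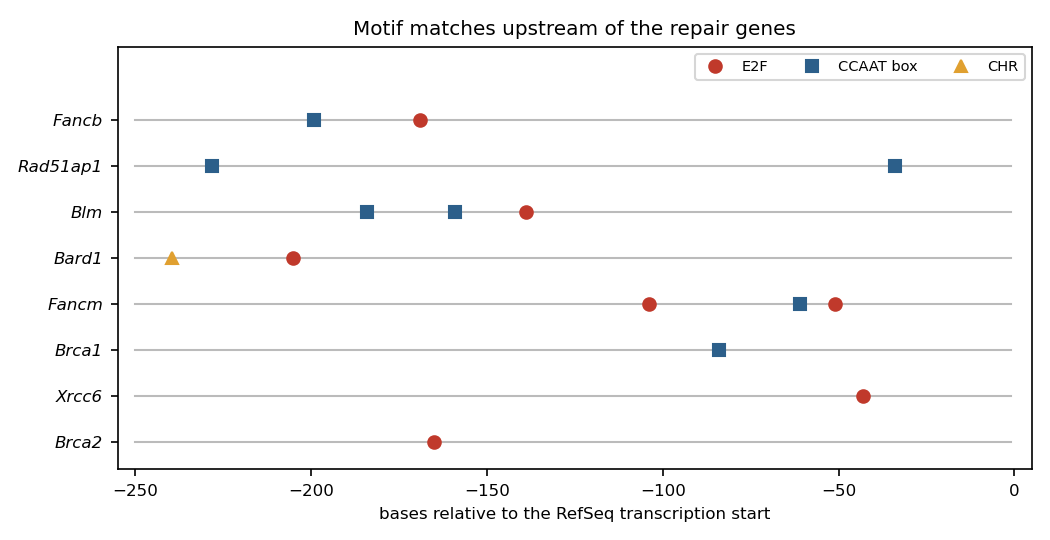
Positions of E2F, CCAAT box and CHR letter matches (symbols) in the 250 bases before the RefSeq start of 8 repair genes; the x axis is in bases relative to the start. An E2F core is held by 6 genes, and Brca1 and Rad51ap1 hold CCAAT boxes only.

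All 10 repair genes were lower with riluzole, at 0.556 (Fancb) to 0.800 (Fancd2) of the control level. Both riluzole libraries lay below both controls for each of the 10, as they did for 99.9% of the 2515 genes listed as lower. Being listed nearly fixed that separation, so it is no added support for any single gene below. The deposited p-values imply that 12601 genes were tested. With Benjamini-Hochberg adjustment over that number, the quasi-likelihood test of edgeR called all 10 genes lower at an adjusted p of 0.05 and 0 higher. The same test called 58.2% of the listed genes lower (2501) and 41.3% higher (1772). The 2501 make 19.8% of the 12601 genes of the authors' test, but edgeR was run on the 4295 listed genes only. With scalings computed from the listed genes alone, the calls were 1597 lower and 1773 higher (TMM) or 1042 lower and 1779 higher (DESeq2 size factors). In the authors' deposited table the adjusted p was under 0.05 for 9 of the 10, all but Fancd2, against 44.7% of listed genes on the lower side. Since the genes come from a table chosen for low p, their count against these shares is not read as a result. The edgeR dispersion was fitted to these selected genes, so edgeR standard errors and p-values may be too small, here and below. Each of the 10 had a larger adjusted p in the authors' deposited table. Exo1 had 0.0147 there against 0.000198 in edgeR, and Fancm 0.00914 against 0.00012. The median log2 fold change was -0.60 over the 10 genes, -0.30 over all genes called lower and -0.19 over all listed genes.

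**Figure D2:**
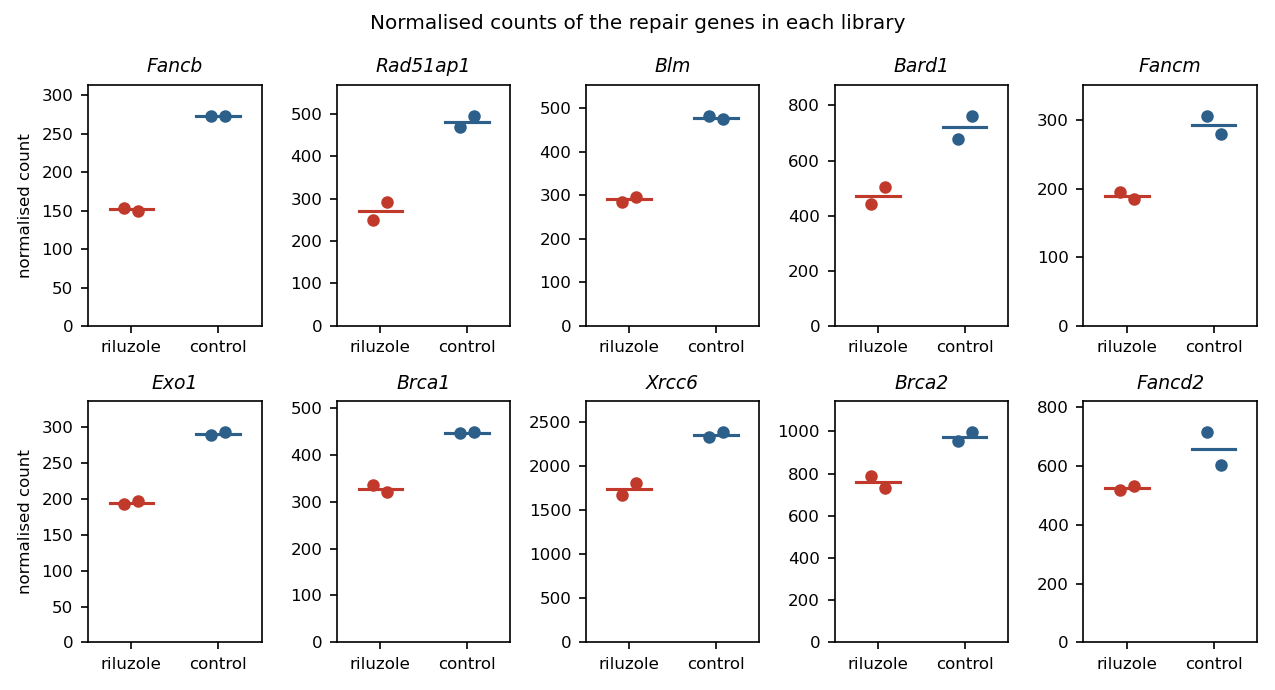
Normalised counts (y axis, each from 0) of the 10 repair genes in the 2 riluzole libraries (red) and the 2 control libraries (blue); points are libraries and bars are group means. Both red points lie below both blue points in every panel, and the gap is narrowest in proportion for Fancd2.

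Both partners of the BRCA1-BARD1 complex fell. Brca1 (chromosome 11, 101379590 to 101442781, minus strand, mm39) encodes a ubiquitin ligase that directs break ends into recombination. It had 336 and 320 normalised counts with riluzole, against 447 and 447 in the controls. The control libraries were almost identical and the riluzole libraries differed by 4.97% of their mean. Its log2 fold change was -0.45 ± 0.10 (SE, n = 2 per group), with an edgeR Benjamini-Hochberg adjusted p of 0.00039 and 0.0196 in the authors' deposited table.

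Bard1 (chromosome 1, 71066657 to 71142305, minus strand) encodes the RING partner that stabilises BRCA1. It had 441 and 502 normalised counts with riluzole, against 679 and 762 in the controls. The replicates differed by 13.1% and 11.5% of their group means, well under the gap of 177 normalised counts between the closest libraries of the groups. Its log2 fold change was -0.62 ± 0.09 (SE; edgeR Benjamini-Hochberg adjusted p = 8.71e-07). Per length, the FPKM ratio of Brca1 to Bard1 was 0.506 and 0.422 with riluzole and 0.436 and 0.389 in the controls. Those ranges overlapped, so the change in the balance between the partners was within the spread between libraries.

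Genes that act in filament building and strand invasion came next. Brca2 (chromosome 5, 150446095 to 150493794, plus strand) encodes a protein that promotes filament assembly on single-stranded DNA. It had 789 and 732 normalised counts with riluzole, against 952 and 995 in the controls. All riluzole values lay below all control values, but the fall was among the shallower ones, -0.36 ± 0.07 on the log2 scale (SE; edgeR Benjamini-Hochberg adjusted p = 9.32e-05).

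Rad51ap1 (chromosome 6, 126900013 to 126916550, minus strand) encodes a DNA-binding protein that stimulates strand invasion. It had 250 and 292 normalised counts with riluzole, against 467 and 494 in the controls. The riluzole libraries differed by 15.6% of their mean, the widest spread among the riluzole values of the 10 genes, and both were far below the controls. Its log2 fold change was -0.83 ± 0.10 (SE; edgeR Benjamini-Hochberg adjusted p = 1.19e-07).

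Among genes of end trimming, Exo1 and Blm fell as well. Exo1 (chromosome 1, 175708147 to 175741055, plus strand) encodes the exonuclease that extends trimming from the break. It had 193 and 197 normalised counts with riluzole, against 290 and 293 in the controls, a log2 fold change of -0.58 ± 0.12 (SE; edgeR Benjamini-Hochberg adjusted p = 0.000198). Replicates of both groups were close, within 2.17% of the group mean. Blm (chromosome 7, 80104481 to 80184867, minus strand) encodes the RecQ helicase that is mutated in human Bloom syndrome, which assists trimming and dissolves joined chromatids without crossing over. It had 285 and 297 normalised counts with riluzole, against 482 and 474 in the controls, a log2 fold change of -0.72 ± 0.10 (SE; edgeR Benjamini-Hochberg adjusted p = 6.12e-07). The closest libraries of the 2 groups were 178 normalised counts apart.

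Fancb, Fancm and Fancd2 belong to the Fanconi pathway. Fancb (chromosome X, 163763588 to 163780268, plus strand) encodes a subunit of the catalytic module that attaches ubiquitin to FANCD2. It had 154 and 149 normalised counts with riluzole, against 273 and 273 in the controls. This was the steepest fall of the 10 genes, -0.85 ± 0.13 on the log2 scale (SE; edgeR Benjamini-Hochberg adjusted p = 3.14e-06), and ranked 76 among the 2515 genes listed as lower. It rested on low counts, 135 to 325 reads per library.

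Fancm (chromosome 12, 65122377 to 65178832, plus strand) encodes the translocase that anchors the core complex on DNA. It had 195 and 185 normalised counts with riluzole, against 306 and 279 in the controls, a log2 fold change of -0.62 ± 0.12 (SE; edgeR Benjamini-Hochberg adjusted p = 0.00012). The groups did not overlap, and the controls were 9.22% apart. Exons of the predicted gene Gm47870 overlap it on the other strand by 575 bases, Gm47869 overlaps it too, and no source used here gives the strand setting of the counting, so its level is less certain.

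Fancd2 (chromosome 6, 113508643 to 113573978, plus strand) encodes the protein that the core complex ubiquitinates and that then recruits nucleases to the crosslink. It had 517 and 531 normalised counts with riluzole, against 713 and 604 in the controls. The controls differed by 16.6% of their mean, more than for any other of the 10 genes, and the lower control stood 72.6 normalised counts above the higher riluzole library. The log2 fold change of -0.32 ± 0.09 (SE) passed in edgeR (Benjamini-Hochberg adjusted p = 0.00309), but the authors' deposited table gives an adjusted p of 0.0592. Without control replicate 1 the log2 fold change was -0.20 (edgeR Benjamini-Hochberg adjusted p = 0.133). Its exons overlap the opposite-strand gene Fancd2os by 257 bases.

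Xrcc6 (chromosome 15, 81872036 to 81924286, plus strand) encodes Ku70, which caps broken ends for end joining and is the 1 gene of the 10 outside recombination and crosslink repair. It had 1675 and 1812 normalised counts with riluzole, against 2333 and 2383 in the controls. The groups were separated by 521 normalised counts. Its log2 fold change of -0.44 ± 0.05 (SE) had the smallest edgeR Benjamini-Hochberg adjusted p of the 10 genes, 3.18e-08, at the deepest counts, 1637 to 2834 reads per library. Its exons overlap Desi1 on the other strand by 344 bases. Neither Xrcc5, which encodes the Ku80 partner, nor Prkdc, which encodes the kinase they recruit, was listed.

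**Figure D3:**
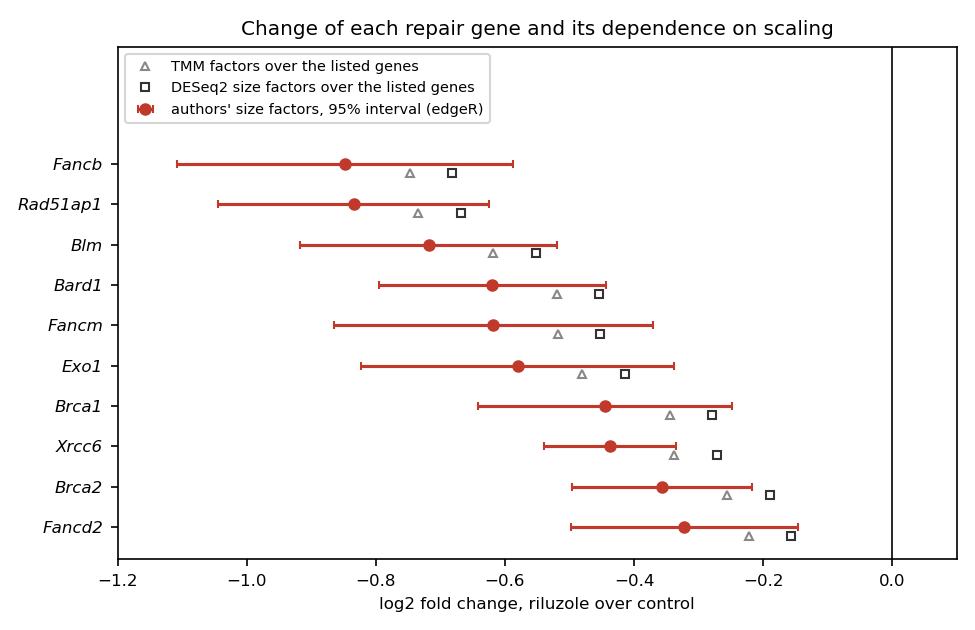
Log2 fold change (x axis, riluzole over control) of each repair gene with its 95% interval from edgeR under the authors' size factors (red), and the same value under 2 scalings computed from the listed genes (open symbols). Every point is below 0; the intervals of Fancb and Rad51ap1 lie wholly to the left of those of Fancd2 and Brca2.

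The estimated falls differed in size. The 95% edgeR intervals of the log2 fold changes did not overlap for 8 of the 45 pairs of genes. The share over pairs of other listed genes was not computed. Each of the 8 pairs set Fancb, Rad51ap1 or Blm, the steeper genes, against Brca2, Fancd2 or Xrcc6, the shallower ones. Fancb spanned -1.11 to -0.59 and Rad51ap1 -1.04 to -0.62, whereas Brca2 spanned -0.50 to -0.22 and Fancd2 -0.50 to -0.15. Differences between genes were not tested beyond these intervals. They rest on a dispersion fitted to genes chosen for low p, which may make them too narrow. Scaling by DESeq2 size factors, computed over the listed genes, raised all log2 fold changes by 0.17, and brought Brca1 to -0.28, Xrcc6 to -0.27, Brca2 to -0.19 and Fancd2 to -0.16, the last no longer called (edgeR Benjamini-Hochberg adjusted p = 0.302).

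The order of the genes by mean level differed between the groups. Per length, Xrcc6 stood far above the rest, at 22.1 ± 1.20 FPKM with riluzole and 30.4 ± 0.52 FPKM in the controls (SD, n = 2). Bard1 was second in both groups, at 4.73 ± 0.43 FPKM with riluzole and 7.35 ± 0.61 FPKM in the controls. In the controls Rad51ap1 (5.77 ± 0.24 FPKM) and Fancb (5.34 ± 0.01 FPKM) followed, above Fancd2 (4.79 ± 0.55 FPKM) and Brca2 (4.12 ± 0.14 FPKM).

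With riluzole, Fancd2 (3.75 ± 0.07 FPKM) was above Rad51ap1 (3.20 ± 0.35 FPKM), Brca2 (3.16 ± 0.17 FPKM) and Fancb (2.91 ± 0.07 FPKM). Rad51ap1 and Brca2, and Rad51ap1 and Fancb, overlapped between libraries there and cannot be ordered. Blm and Brca1 also changed places, Blm averaging 1.88 ± 0.05 FPKM with riluzole and 3.14 ± 0.03 FPKM in the controls, and Brca1 2.18 ± 0.08 FPKM with riluzole and 3.03 ± 0.01 FPKM in the controls. Exo1 (1.31 ± 0.02 FPKM with riluzole, 2.00 ± 0.02 FPKM in the controls) and Fancm (1.03 ± 0.04 FPKM with riluzole, 1.62 ± 0.10 FPKM in the controls) were lowest in both groups.

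**Figure D4:**
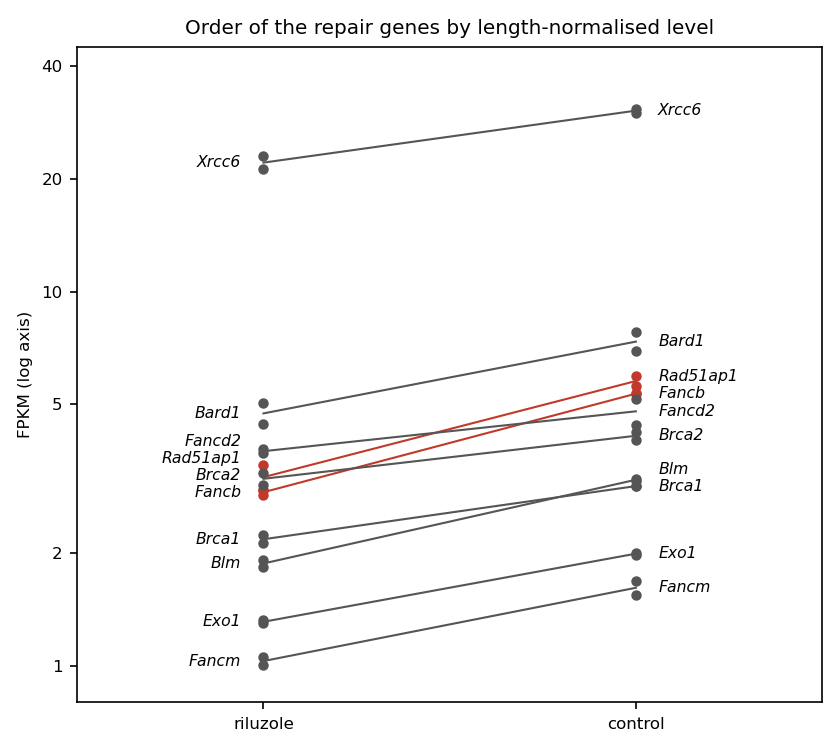
FPKM (log axis) of the 10 repair genes in riluzole (left) and control libraries (right); points are libraries and lines join group means. Rad51ap1 and Fancb (red) stand above Fancd2 in the controls and below it with riluzole.

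Beyond the 10 genes, 84 others belong to the same repair lists, and 15 of them were listed. Of those 15, edgeR called 13 lower and 2 higher, and their median log2 fold change was -0.39; over all listed genes the shares were 58.2% lower and 41.3% higher. With DESeq2 size factors computed from the listed genes, 7 of the 15 were called lower. The authors' deposited table gives an adjusted p under 0.05 to 8 as lower and 2 as higher, where 28.3% of listed genes were called higher. The repair lists were chosen with earlier results of these data known, and being listed nearly fixed an edgeR call. These counts are therefore not read against the shares. The 15 listed of these 84 make 17.9%, against 34.1% of all tested genes. Together with the 10, 25 of 94 repair genes were listed (26.6%), a share raised by taking the 10 from the listed genes. How many of the 94 were tested is not known. Most genes of these pathways therefore gave no listed change in these libraries.

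Of the BRCA1 complexes, Brip1, which encodes a helicase bound to BRCA1, had 169 and 157 normalised counts with riluzole and 240 and 210 in the controls. Abraxas1, a scaffold of the BRCA1-A complex, had 440 and 448 with riluzole and 568 and 539 in the controls. Both fell in edgeR (Benjamini-Hochberg adjusted p = 0.0065 and 0.00361), while the authors' deposited table gives adjusted p values of 0.114 and 0.0757. Palb2, the bridge from BRCA1 to BRCA2, was among the 5 genes of that list not listed.

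Of 6 other trimming genes, 2 were listed and both fell: Rbbp8, the CtIP gene that starts trimming with the MRE11 nuclease (log2 fold change -0.38), and Mre11a (-0.18). The value of Mre11a hung on the scaling, at -0.083 with TMM factors and -0.017 with DESeq2 size factors from the listed genes, and the authors' deposited table gives it an adjusted p of 0.139. Rad50 and Nbn, the other subunits of the MRE11 complex, were not listed.

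Of 24 other genes of the filament and strand exchange, 6 were listed, 5 lower and 1 higher. Rpa3 and Rpa2, subunits of the protein that coats single-stranded DNA, had log2 fold changes of -0.34 and -0.48. Swi5, which encodes an accessory factor of strand exchange, rose by 0.17, and its exons overlap those of Golga2 on the other strand. Neither Xrcc2 nor Xrcc3 was listed.

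Among 10 other genes that dissolve or cut joined chromatids, only the resolvase gene Gen1 was listed (log2 fold change -0.57; edgeR Benjamini-Hochberg adjusted p = 0.000161). Of 12 other Fanconi core genes 1 was listed, Ube2t, the ubiquitin-conjugating enzyme of the pathway, at -0.42 (adjusted p = 0.00269 in edgeR with Benjamini-Hochberg adjustment, 0.0712 in the authors' deposited table). Fanca, Fancc, Fance, Fancf, Fancg and Fancl were not listed, and nor was Fanci, the partner of FANCD2. Usp1, which removes ubiquitin from FANCD2, fell by 0.42 (edgeR Benjamini-Hochberg adjusted p = 6.12e-07). The FPKM ratio of Fancd2 to Usp1 was 0.232 and 0.225 with riluzole and 0.227 and 0.202 in the controls, which overlapped.

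End joining genes went both ways. Rif1, which protects break ends from trimming, had 1837 and 1795 normalised counts with riluzole and 2433 and 2596 in the controls. Polm, which encodes a gap-filling polymerase of end joining, had 652 and 581 normalised counts with riluzole and 426 and 418 in the controls. Rif1 fell by 0.47 and Polm rose by 0.55 on the log2 scale (edgeR Benjamini-Hochberg adjusted p = 5.89e-09 and 6.95e-06), and 16 of the 18 other end joining genes were not listed. Atm, the kinase that signals breaks, is listed as higher in the authors' deposited table (log2 fold change 0.28, adjusted p = 0.0774).

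Most listed cell cycle genes were lower with riluzole. All 25 listed of 34 S phase genes were called lower in edgeR, where 58.2% of all listed genes were, and 22 passed at the authors' adjusted p; their median log2 fold change was -0.52, in a range of -1.22 to -0.26. Of 32 genes of G2 and M phase 27 were listed, 25 lower and 2 higher in edgeR, with a median of -0.48. At the authors' adjusted p 24 of them were lower and 1 higher. DESeq2 size factors computed from the listed genes raised the log2 fold changes of both lists by 0.17. The shallowest fall was then -0.089 among the S phase genes and -0.015 among the G2 and M phase genes. Over all listed genes 44.7% were lower and 28.3% higher at the authors' adjusted p, and 41.3% were higher in edgeR. Being listed nearly fixed a call, since edgeR left only 22 of the 4295 listed genes uncalled. The lists were also chosen with earlier results of these data known. The counts are therefore not read against these shares. The summed normalised counts of the listed S phase genes were 24804 and 25324 with riluzole and 35417 and 34791 in the controls. Those of the 10 repair genes were 4834 and 5017 with riluzole and 6943 and 7005 in the controls. The part of the cell cycle genes in the fall of the repair genes was not tested, and in bulk RNA fewer cells in S or G2 phase and less RNA per cell cannot be told apart.

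Of 22 genes of the E2F, RB and DREAM regulators of cell cycle transcription, 10 were listed. In edgeR 8 were lower and 2 higher, beside 58.2% lower and 41.3% higher over all listed genes. At the authors' adjusted p 5 were lower and 2 higher, beside 44.7% and 28.3%. This list too was chosen with earlier results known, and its counts are not read against the shares. Rbl1, encoding the pocket protein p107, fell by 0.70, Mybl2, an activator of G2 genes, by 0.79 and Foxm1, another such activator, by 0.50 on the log2 scale. Cdkn1a, the p21 inhibitor of cyclin-dependent kinases, rose by 0.41, and Rbl2, encoding the DREAM subunit p130, by 0.49. On the other strand, exons of Gm45464 overlap Rbl2 by 892 bases and those of AC167363.2 overlap Cdkn1a by 273 bases. With riluzole Cdkn1a had 9234 and 9143 normalised counts, against 6804 and 6990 in the controls. Tfdp1, the only listed gene of these lists whose sign changed between scalings, had a log2 fold change of -0.13 under the authors' size factors and 0.04 under those of DESeq2.

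**Figure D5:**
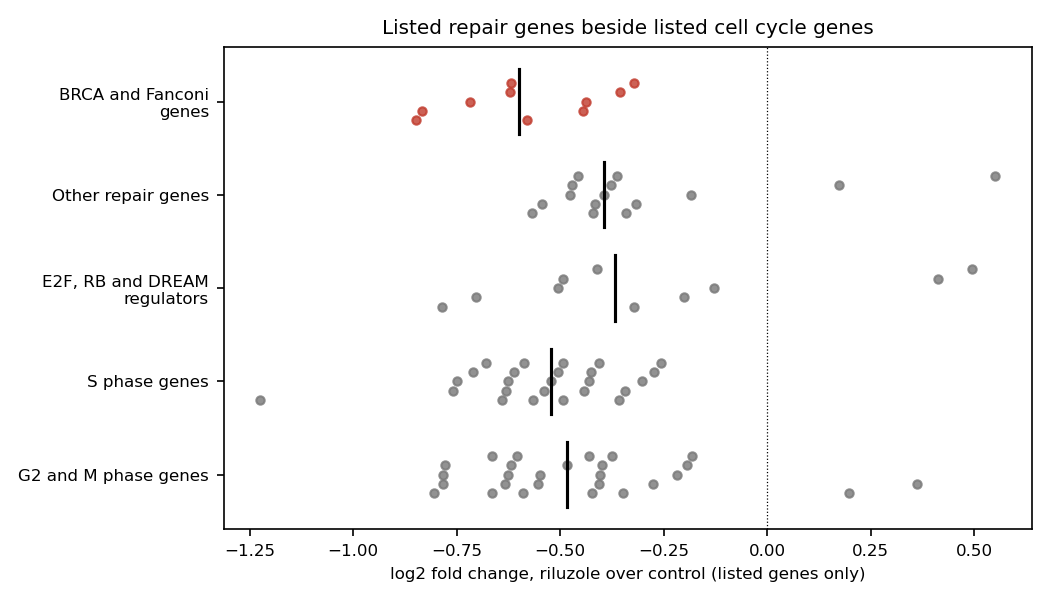
Log2 fold change (x axis, riluzole over control) of listed genes, 1 point per gene, in the 10 repair genes (red) and 4 other lists (grey). The red row is labelled BRCA and Fanconi genes but includes Xrcc6 of end joining. Vertical bars are list medians. The median of the 10 repair genes is -0.60, that of the listed S phase genes -0.52 and that of the listed G2 and M phase genes -0.48.

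By distance between centred log2 profiles over the 4 libraries, the listed genes nearest to the mean of the 10 were Zfp598, the pseudogene Gm25432 and Nop58. Zfp598 encodes a ubiquitin ligase that acts on collided ribosomes, and Nop58 a core protein of nucleolar box C/D particles. Zfp598 had 4257 and 4350 normalised counts with riluzole and 6401 and 6401 in the controls. The likeness is measured over 2 groups of 2 libraries only.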

How the data were processed

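Poly-A RNA of 4 CT26 libraries was sequenced. Build mm39, HISAT2, DESeq2, edgeR and featureCounts 1.5.0-p3 are named in the submitters' processing notes; no source used here gives the settings, strandedness or annotation. The authors deposited raw read counts per gene, normalised counts (a signal: counts over library size factors, which were 1.03 and 0.904 for riluzole and 0.911 and 1.19 for control), FPKM, a log2 fold change, and a p-value with its adjusted p, per the file headers and the values. Only genes at p below 0.05 are in these tables.

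Groups came from the labels. Counts of all 4295 genes were tested with edgeR 4.0.16 in R 4.3.3 (quasi-likelihood F test, authors' size factors, no filter or covariate). Benjamini-Hochberg adjustment used the 12601 tested genes implied by the deposited p and adjusted p. The authors' deposited table has the larger adjusted p for 3676 genes and the smaller for 619. The script was tested on simulated counts. Alternatives were TMM and DESeq2 size factors, FPKM totals, a mean count of at least 10, DESeq2 1.42.0, the authors' adjusted p, a replicate block and leaving out each library.

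Overlapping exons (at least 50 bases, bedtools 2.31.1) and copies (95% identity over 200 bases, BLAST+ 2.17.0) came from GENCODE M21 on GRCm38, matched by identifier. None of the 10 genes had a copy. Among the other named genes, Rbbp8, Mre11a, Abraxas1 and Foxm1 also overlap exons of other genes, and Usp1, Mybl2 and Tfdp1 have a copy. Promoters are RefSeq's on GRCm38.p6; motifs were chosen after the sequences were seen. Of 120 list genes absent by symbol, 118 had an identifier and 0 were listed under another name. The members and lists were chosen with earlier results of these data known. Named genes were the 10, up to 3 genes per repair or regulator list and direction with the smallest edgeR adjusted p, key partners as listed or not, and the 3 nearest profiles; Tfdp1, Krt18, Krt20 and Cd68 were named after their values were seen. A gene that the rule names is not reported here.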

Additional observations from a re-analysis of the deposited data

How the results depend on the processing

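All 10 repair genes kept their negative direction under each of the 11 alternatives, and 106 of the 110 gene-by-alternative results stayed past the threshold. The 4 that did not were all Fancd2: -0.22 with TMM factors over the listed genes (edgeR Benjamini-Hochberg adjusted p = 0.0707), -0.16 with DESeq2 size factors from those genes (0.302), -0.33 in the authors' deposited table (0.0592) and -0.20 without control replicate 1 (0.133). Scalings from the listed genes centre on a selection in which lower genes outnumber higher ones, and by that construction raise every log2 fold change, by 0.10 (TMM) and 0.17 (DESeq2 size factors). All genes called lower numbered 1597 with TMM factors, 1042 with DESeq2 size factors and 2510 with the replicate number as a block, against 2501. The main edgeR fit left only 22 of the 4295 listed genes uncalled. Every alternative reuses the same 4 libraries in which the 10 genes had a p under 0.05. Staying past the threshold is therefore no independent support. Other repair genes called lower numbered 7 with DESeq2 size factors and 8 in the authors' deposited table (adjusted p under 0.05), against 13; leaving out 1 library gave 9 or 10 of the 10 genes lower, 11 to 12 other repair genes lower and 1 to 2 higher. The replicate numbers are not stated to pair the libraries, and the deviations of same-numbered libraries correlated at 0.08 over 4038 genes; with the replicate number as a block, 10 repair genes were called lower, 13 other repair genes lower and 2 higher. Depth limits the members with 135 to 348 reads per library, Fancb, Fancm and Exo1, whose standard errors were the largest of the 10.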
